A study of Homo sapiens with 12 samples.

Results

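Levels of 9 genes of the ETS family, ETS1, ETS2, FLI1, ELF1, ELK1, ELK3, ELK4, ETV6 and GABPA, were examined in HOS cells with altered expression of the adaptor protein CIN85. The genes are 9 of the 25141 genes in the count table, and all 9 were among the 12542 genes that passed the filter on low counts. ETS1 was selected on its measured response, a lower level in the libraries labelled upCIN85 and a higher level in the siCIN85 libraries, and the others were taken as its relatives without the PEA3 group of the family. The responses of ETS1 are therefore given as a description without a test. Tests are given for the other 8 genes, and FLI1 was singled out with earlier results of these data known.

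ETS proteins are transcription factors that share a DNA-binding domain, the ETS domain, which recognises sites with a GGAA core. Many of them are phosphorylated by MAP kinases, and members differ in whether they activate or repress transcription. ETS1 and ETS2 are close relatives that act downstream of RAS and ERK, FLI1 is a relative of ERG that is best known from Ewing sarcoma fusions and from blood and endothelial cells, and ELK1, ELK3 and ELK4 are partners of serum response factor. ELF1 is known from T cells, ETV6 is a transcriptional repressor, and GABPA is the DNA-binding subunit of GABP, a regulator of mitochondrial and housekeeping genes.

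HOS is a human osteosarcoma cell line, and 4 groups of 3 RNA-seq libraries were compared. The libraries labelled upCIN85 came from a geneticin-resistant pool of HOS cells transfected with the pRc/CMV2-Rukl plasmid, which encodes full-length CIN85, and Mock libraries from HOS cells given the empty vector. The paper describes geneticin selection after transfection without limiting it to either construct. The siCIN85 libraries came from HOS cells given a mix of siRNAs against CIN85, and siNeg libraries from cells given non-targeting siRNA. The upCIN85 cells were 1 pool, and the labels do not say whether the 3 libraries of a group came from separate cultures, so P-values measure the spread between these libraries, which may be technical. Comparisons in whole-culture RNA cannot tell fewer cells that express a gene apart from less RNA per cell.

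Totals were 3540641 to 6049458 counts per library, and levels are given in CPM, counts scaled to a library total of 1000000 after TMM normalisation. SH3KBP1, the gene of CIN85, was at 77.5 ± 5.0 CPM in Mock and 81.3 ± 9.61 CPM in the libraries labelled upCIN85 (mean ± SD, n = 3 each). With siNeg it was at 85.1 ± 2.37 CPM, and with siCIN85 at 7.54 ± 3.19 CPM. The knockdown was thus visible (log2FC -3.51, SE 0.208, edgeR adjusted P = 5.09e-08), and a gain was not (log2FC 0.070, adjusted P = 0.887). Whether transcripts of the plasmid fall on the counted 3′ end of SH3KBP1 is not given in the sources used here, so these counts do not check that label. For protein, the paper examined the resistant pool by western blot and reports that full-length CIN85 was overexpressed. Summed CPM of 5 osteoblast and mesenchymal markers was 1188 to 2563 in all 12 libraries, lower in siCIN85 (1188 to 1600) than in siNeg (1718 to 2085). The sums of 4 endothelial markers (1.5 to 6.80) and of the 3 of 4 blood markers in the table (at most 0.578) were low in every library. EPCAM and CDH1, epithelial markers, summed to 69.8 to 82.6 CPM in the libraries labelled upCIN85 and 50.6 to 56.1 in Mock. Among the markers tested, COL1A2 alone passed by edgeR, with the plasmid (log2FC 1.35, adjusted P = 0.0439), and its call held in 11 of 19 alternatives. With replicate numbers as a block in the knockdown, SPARC (log2FC -0.46, adjusted P = 0.0102) and COL1A1 (-0.72, adjusted P = 0.0353) also passed in siCIN85 versus siNeg and SPARC in upCIN85 versus Mock (-0.35, adjusted P = 0.0336), and DESeq2 called COL1A1 with the siRNA (adjusted P = 0.0222). The part of these markers in the results below was not tested.

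ETS1 (ENSG00000134954) lies on the minus strand of GRCh38 chromosome 11, from 128458761 to 128587558. Its level was 127, 139 and 126 CPM in the 3 Mock libraries and 66.3, 90.5 and 66.6 CPM in the libraries labelled upCIN85. It was 93.5, 95.1 and 103 CPM in the siNeg libraries and 151, 146 and 135 CPM in the siCIN85 libraries. Every library labelled upCIN85 was below every Mock library, and every siCIN85 library was above every siNeg library. These values correspond to a log2FC of -0.81 (SE 0.120, 0.572-fold) with the plasmid and 0.57 (SE 0.121, 1.48-fold) with the siRNA, the values on which the gene was selected. Ordered by mean level, the groups were siCIN85 (143.8 ± 8.06 CPM), Mock (130.3 ± 7.14), siNeg (97.2 ± 5.18) and the libraries labelled upCIN85 (74.5 ± 13.9). Only the neighbours siCIN85 and Mock overlapped in this order. The Mock and siNeg levels lay apart, with a log2FC of -0.42 (SE 0.120) for siNeg versus Mock, so the siCIN85 level was above its own control but overlapped the vector control.

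FLI1 (ENSG00000151702) lies on the plus strand of chromosome 11, from 128686535 to 128813267, and 98976 bases separate it from ETS1. It was at 26.5, 39.2 and 34.9 CPM in Mock and at 20.5, 21.9 and 19.0 CPM in the libraries labelled upCIN85. In siNeg it was at 33.7, 38.1 and 34.6 CPM, and in siCIN85 at 49.99, 48.0 and 47.3 CPM. As for ETS1, neither pair of groups overlapped, and the directions were opposite. The level fell with the plasmid by 0.71 on the log2 scale (SE 0.146, 0.610-fold, edgeR adjusted P = 0.0246). With the siRNA the log2FC was 0.45 (SE 0.145, 95% confidence interval 0.14 to 0.75, 1.36-fold), which did not pass the test (adjusted P = 0.143). It did not pass with replicate numbers as a block in the knockdown (edgeR adjusted P = 0.104) and passed with a block in both experiments (0.0364). The difference between the responses was -1.16 on the log2 scale (SE 0.206) and passed the test in the main fit (adjusted P = 0.0122). The call in upCIN85 versus Mock was lost when Mock replicate 2 (adjusted P = 0.16), Mock replicate 3 (0.0977), upCIN85 replicate 1 (0.0665) or upCIN85 replicate 3 (0.137) was left out, while the call on the difference held in every alternative run.

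**Figure D1:**
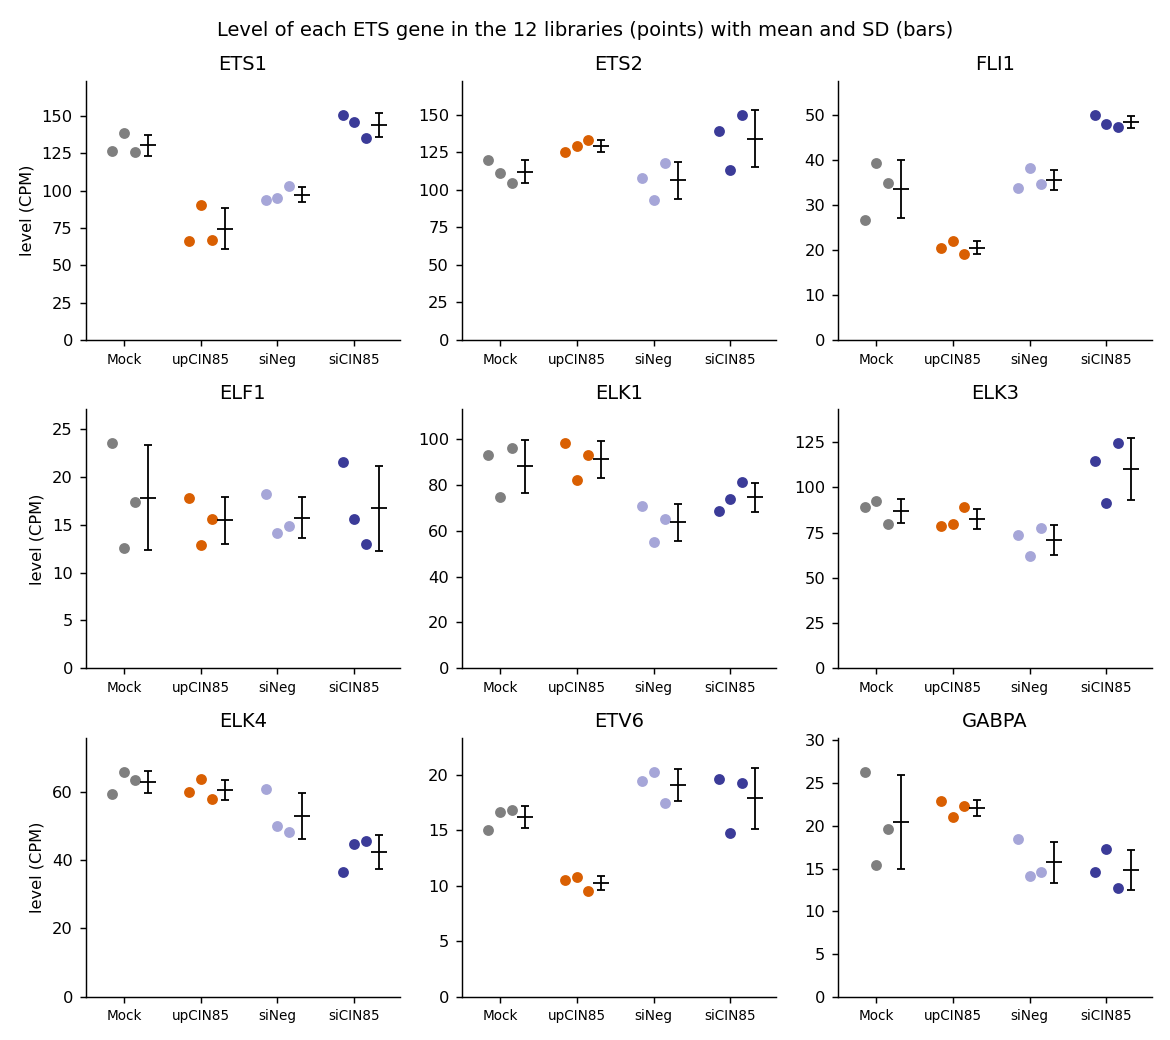
Levels of the 9 ETS genes in CPM (vertical axes from 0) in the 4 groups of libraries, with 1 point per library and the mean ± SD (n = 3) beside each group. For ETS1 and FLI1 all 3 libraries labelled upCIN85 lie below Mock and all 3 siCIN85 libraries lie above siNeg. Only siCIN85 stands apart from its control for ELK3 (above) and ELK4 (below), and only upCIN85 does for ETV6 (below) and ETS2 (above).

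Across the 12 libraries, with the mean of each experiment subtracted, the log2 CPM of FLI1 and ETS1 had a Pearson r of 0.919, rank 11 of the 8953 genes with a mean of at least 10 CPM. The median r of these genes was -0.015, with quartiles of -0.31 and 0.30. With the mean of each group subtracted, r was 0.42, so less of the likeness was seen within the groups. These points share libraries and normalisation, and ETS1 was selected on its group differences. Next in order among the ETS genes were ETV6 (r = 0.63, rank 576) and ELK3 (r = 0.53, rank 965). The count of FLI1 per count of ETS1 was 0.210 to 0.283 in Mock and 0.242 to 0.309 in the libraries labelled upCIN85, and 0.336 to 0.401 in siNeg and 0.329 to 0.350 in siCIN85. Within each experiment these ranges overlapped, whereas the ranges of the control groups did not.

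**Figure D2:**
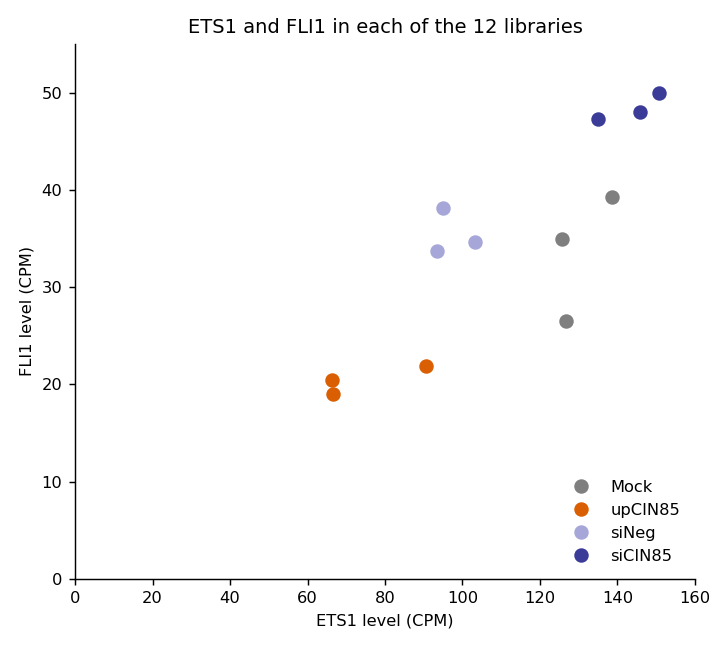
Level of FLI1 against that of ETS1 (both in CPM) in each of the 12 libraries, coloured by group. The 3 libraries labelled upCIN85 lie lowest on both axes for their experiment and the 3 siCIN85 libraries lie highest for theirs, and siNeg lies left of Mock at a similar FLI1 level.

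Both genes lie near the end of the long arm of chromosome 11, where other genes were also lower in the libraries labelled upCIN85. Of the 82 other tested genes within 10 Mb of ETS1, 70 had a negative log2FC in this comparison, and their median was -0.25, against 0.0072 for all tested genes. Over all 706 other tested genes of chromosome 11 the median was -0.16, outside the range of -0.10 to 0.13 of the medians of the other 22 chromosomes. The shift was not even along the chromosome. From 90 to 80 Mb before ETS1 the median of 48 genes was 0.28, and from 50 to 40 Mb before it the median of 20 genes was -0.36. By library, the median of the 82 genes relative to the Mock mean was -0.23, -0.13 and -0.40 in upCIN85 replicates 1, 2 and 3 and -0.028 to 0.044 in the Mock libraries.

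Of the 82 genes, 2 had a lower log2FC than ETS1, a position that follows in part from the selection of ETS1 on this value, and 6 of the 78 genes within 10 Mb of FLI1 had a lower one than FLI1. Relative to the median of their surroundings, ETS1 was at -0.56 and FLI1 at -0.48 on the log2 scale. In siCIN85 versus siNeg the same surroundings had medians of 0.037 and 0.039, and relative to them ETS1 was at 0.53 and FLI1 at 0.41. The part of the regional shift in the lower levels of ETS1 and FLI1 was not tested, and this comparison was chosen after the values had been seen. Within 1000000 bases on either side of the pair, 4 of the 25 annotated genes were tested, the pair itself, SENCR and ARHGAP32. SENCR, a long noncoding RNA antisense to FLI1 with at most 33 counts in a library, had a log2FC of -0.35 with the plasmid and 0.21 with the siRNA. ARHGAP32 had a log2FC of -0.17 and 0.28, and neither gene passed the test in either comparison. The counting strand is not given in the sources used here, so reads of FLI1 and SENCR may not be fully separated.

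**Figure D3:**
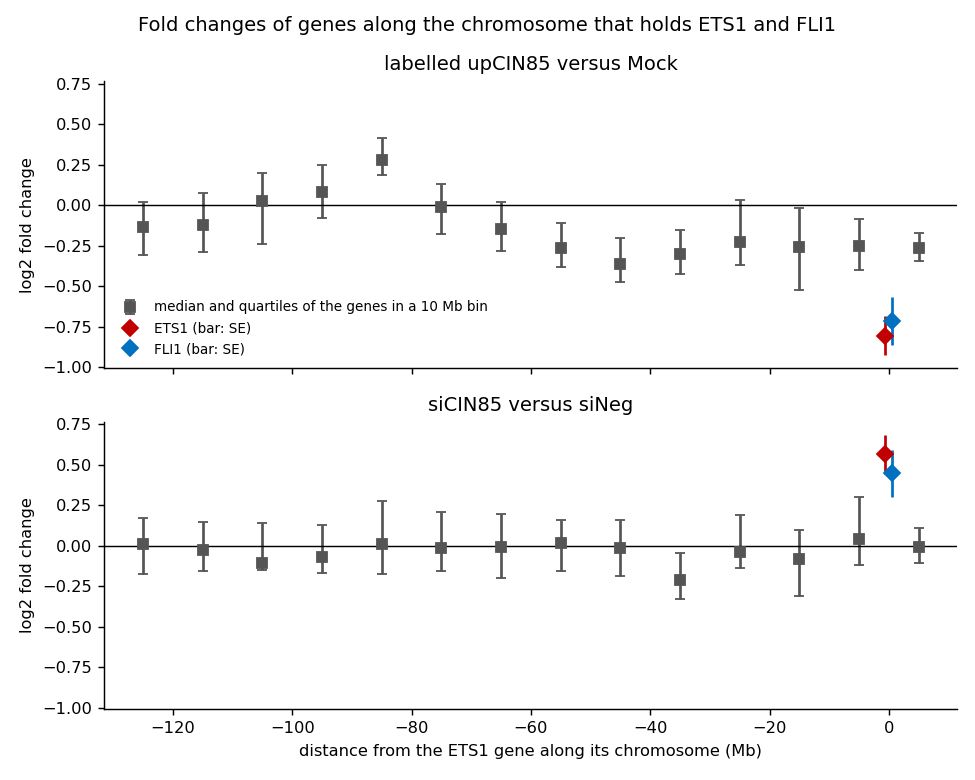
Log2FC of tested genes along the chromosome of ETS1 and FLI1 against distance from ETS1 in Mb, in bins of 10 Mb, with the median (squares) and quartiles (bars) of each bin, and ETS1 and FLI1 as diamonds with their SE, drawn slightly apart. In upCIN85 versus Mock the bins rise to 0.28 and then stay below 0 towards ETS1, whereas in siCIN85 versus siNeg the bin at ETS1 is at 0.039 and both genes stand above it.

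ETS2 (chromosome 21, 38805307 to 38824955), the nearest relative of ETS1, did not share its opposite responses. It was at 120, 112 and 105 CPM in Mock and 125, 129 and 133 CPM in the libraries labelled upCIN85. The siNeg libraries were at 108, 93.3 and 118 CPM and the siCIN85 libraries at 139, 113 and 150. With the plasmid the groups did not overlap and the higher values were those labelled upCIN85, the reverse of ETS1. Its log2FC was 0.21 (95% confidence interval -0.039 to 0.45, adjusted P = 0.442) and 0.34 (0.085 to 0.59, adjusted P = 0.177), and neither passed the edgeR test. With a block in both experiments the value with the siRNA passed (edgeR adjusted P = 0.035). The difference between its responses was -0.13 (95% confidence interval -0.48 to 0.22).

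Among the ternary complex factors, ELK3 differed in the knockdown only. ELK3 (chromosome 12, 96194382 to 96269835), which represses its targets until it is phosphorylated, was at 73.5, 61.8 and 77.6 CPM in siNeg and at 114.8, 91.4 and 124.4 CPM in siCIN85. All 3 siCIN85 libraries were above siNeg, and the level rose by 0.64 on the log2 scale (SE 0.130, 1.55-fold, edgeR adjusted P = 0.0264). The call was lost in a fit on the 6 libraries alone (adjusted P = 0.08) and without siNeg replicate 1 (0.0953), siNeg replicate 2 (0.168), siCIN85 replicate 1 (0.149) or siCIN85 replicate 3 (0.131). In Mock it was at 89.2, 92.5 and 79.6 CPM and in the libraries labelled upCIN85 at 78.9, 79.9 and 88.9 CPM. These overlapped, with a log2FC of -0.077 (95% confidence interval -0.34 to 0.19). Every siNeg library was below every Mock library (log2FC -0.30, SE 0.129, edgeR adjusted P = 0.359). The siCIN85 level was thus above its own control but overlapped Mock. The difference between its responses was -0.71 (SE 0.181, edgeR adjusted P = 0.0704), and with replicate numbers as a block in the knockdown it passed the threshold (adjusted P = 0.0178).

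ELK4 (chromosome 1, 205597556 to 205631962) moved the other way in the knockdown, at 60.7, 50.1 and 48.2 CPM in siNeg and 36.6, 44.8 and 45.7 CPM in siCIN85. The groups did not overlap, and the log2FC of -0.32 (95% confidence interval -0.60 to -0.047) did not pass the edgeR test (adjusted P = 0.241). Mean levels were 62.9 ± 3.23 CPM (Mock) and 60.5 ± 3.00 CPM (labelled upCIN85), and 53.0 ± 6.76 CPM (siNeg) and 42.4 ± 4.99 CPM (siCIN85). ELK1 (chromosome X, 47635521 to 47650604) was at 88.0 ± 11.5 CPM in Mock and 91.0 ± 8.21 in the libraries labelled upCIN85, and at 63.6 ± 7.98 in siNeg and 74.6 ± 6.37 in siCIN85. Ordered by mean level, the libraries labelled upCIN85 came first, then Mock, siCIN85 and siNeg, and each overlapped the next, with a log2FC of 0.050 in the first comparison (adjusted P = 0.901) and 0.23 in the second (adjusted P = 0.419).

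ETV6 (chromosome 12, 11649854 to 11895402) shared the lower level with the plasmid but not the higher level with the siRNA. It was at 15.05, 16.6 and 16.8 CPM in Mock and at 10.5, 10.8 and 9.52 CPM in the libraries labelled upCIN85, and these did not overlap. Its log2FC was -0.66 (SE 0.164, 95% confidence interval -1.001 to -0.31, 0.635-fold) and missed the threshold (edgeR adjusted P = 0.0566). It passed with the block in the knockdown (adjusted P = 0.032) and without siCIN85 replicate 2 (0.0482). In siNeg it was at 19.5, 20.3 and 17.4 CPM and in siCIN85 at 19.7, 14.7 and 19.3 CPM, overlapping, with a log2FC of -0.088 (95% confidence interval -0.44 to 0.26). The 105 other tested genes within 10 Mb of ETV6 had a median log2FC of 0.00030 with the plasmid, and 6 of them were lower than ETV6. The test of the difference between its responses gave -0.57 (adjusted P = 0.267).

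ELF1 and GABPA showed no separation in either comparison. ELF1 (chromosome 13, 40932028 to 41061440) was at 17.8 ± 5.49 CPM in Mock and 15.5 ± 2.47 CPM in the libraries labelled upCIN85, with 15.8 ± 2.18 CPM for siNeg and 16.7 ± 4.43 CPM for siCIN85. GABPA (chromosome 21, 25734570 to 25772460) was at 20.5 ± 5.49, 22.1 ± 0.927, 15.7 ± 2.38 and 14.9 ± 2.35 CPM in the same groups. The confidence intervals of their log2FC values reached from -0.68 to 0.60 for ELF1 and from -0.53 to 0.50 for GABPA over both comparisons. Changes of moderate size could thus have been missed for these 2 genes, which had 48 to 140 counts per library. Each overlaps a gene on the opposite strand, WBP4 (at most 275 counts in a library) for ELF1 and ATP5PF (at most 2312) for GABPA. As the counting strand is not given, reads of these pairs may not be fully separated. ELK4 overlaps MFSD4A, which had at most 3 counts.

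**Figure D4:**
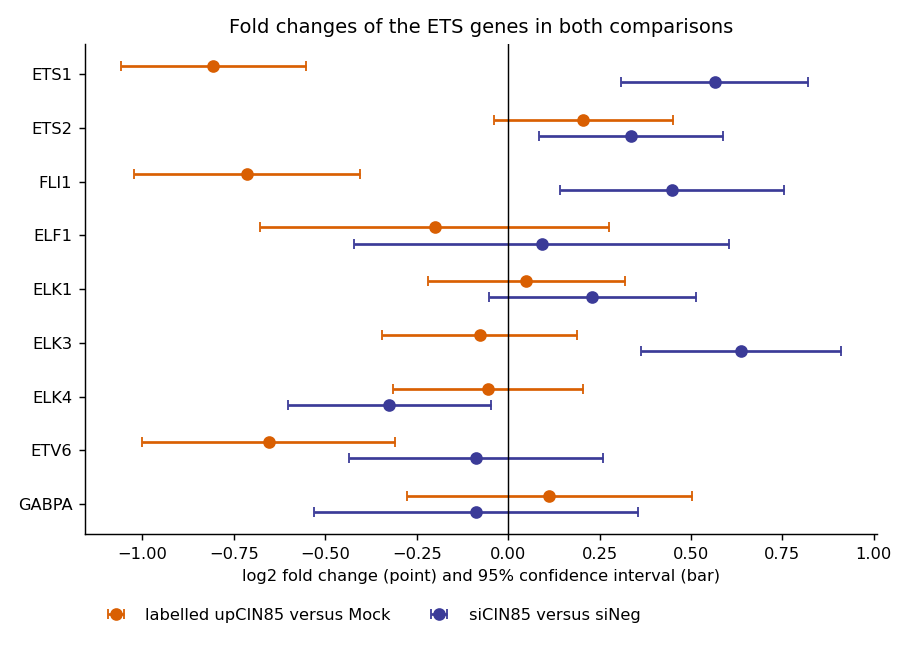
Log2FC (points) with 95% confidence intervals (bars) of the 9 ETS genes for upCIN85 versus Mock (orange) and siCIN85 versus siNeg (blue), where 0 is no difference. Intervals on opposite sides of 0 are seen for ETS1 and FLI1. ELK3 and ETS2 are above 0 only with the siRNA, ELK4 is below 0 only with the siRNA, and ETV6 is below 0 only with the plasmid.

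Counted over the 8 genes other than ETS1, 1 passed the test in upCIN85 versus Mock (FLI1, lower), against 1.23% of all tested genes, and 1 in siCIN85 versus siNeg (ELK3, higher), against 1.04%. For the difference between the responses 1 passed (FLI1), against 0.973%. In siNeg versus Mock none passed the edgeR test or DESeq2, against 0.526% by edgeR, and 2 had an unadjusted P below 0.05, ELK1 (log2FC -0.47) and ELK3 (-0.30), against 12.4% of all genes. The libraries of the compared groups did not overlap for 3 of the 8 in each of the main comparisons, against 20.7% and 20.2% of all genes. Lower in every library labelled upCIN85 and higher in every siCIN85 library held for 1 of the 8, FLI1, against 1.01% of all genes. With replicate numbers as a block in the knockdown, 2 of the 8 passed with the plasmid (FLI1 and ETV6), 1 with the siRNA (ELK3) and 2 for the difference (FLI1 and ELK3), against 4.35%, 3.42% and 2.93% of all genes. The median log2FC of the 8 was -0.067 with the plasmid and 0.16 with the siRNA, against 0.0072 and -0.0052 for all genes.

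The promoter sequences of ELK3 and ETV6 are shown because these genes outside chromosome 11 passed the test with the knockdown block in one of the main comparisons each, and because ETS proteins bind GGAA. They come from RefSeq (GRCh38.p14), which matched 7 of the 9 genes with 11 promoters of 300 bases, from 250 before to 50 after a start. ETS1 and FLI1 had no entry in the promoter set used, so their promoters were not searched. Capitals mark GGAA and its reverse complement TTCC, searched on both strands. The first start of ELK3 lies in chr12:96194125-96194424 and the second in chr12:96255248-96255547, and that of ETV6 in chr12:11649424-11649723, all on the plus strand.
ELK3, first start: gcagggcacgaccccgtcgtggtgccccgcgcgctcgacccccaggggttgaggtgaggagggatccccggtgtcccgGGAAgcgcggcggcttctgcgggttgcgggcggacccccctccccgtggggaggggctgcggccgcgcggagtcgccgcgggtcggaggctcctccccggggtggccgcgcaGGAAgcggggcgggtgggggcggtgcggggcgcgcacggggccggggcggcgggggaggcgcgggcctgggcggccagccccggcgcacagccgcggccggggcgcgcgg
ELK3, second start: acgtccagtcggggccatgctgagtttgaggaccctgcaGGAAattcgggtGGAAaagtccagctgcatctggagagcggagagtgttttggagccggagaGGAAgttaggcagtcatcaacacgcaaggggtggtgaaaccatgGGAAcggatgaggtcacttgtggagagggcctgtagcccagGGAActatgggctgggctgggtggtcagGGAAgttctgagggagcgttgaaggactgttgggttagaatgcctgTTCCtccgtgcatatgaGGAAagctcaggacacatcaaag
ETV6: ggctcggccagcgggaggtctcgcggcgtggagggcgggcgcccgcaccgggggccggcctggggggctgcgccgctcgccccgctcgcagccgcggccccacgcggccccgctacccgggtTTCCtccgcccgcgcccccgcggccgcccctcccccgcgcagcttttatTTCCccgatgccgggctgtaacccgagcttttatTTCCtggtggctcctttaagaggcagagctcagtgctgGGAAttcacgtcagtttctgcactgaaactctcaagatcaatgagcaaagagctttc
The ELK3 promoters held 2 and 8 matches, numbers reached by 83.8% and 3.78% of all 35116 RefSeq promoters, and that of ETV6 held 4 (46%). The median promoter held 3, and 95.5% held at least 1. The longer motif CCGGAA or TTCCGG, which includes the core, was in 17.2% of all promoters, in none of these 3, and in those of ELK4 (2 matches) and GABPA (1 match). The matches are letters in these windows only, and 3′-end counts do not tell which start of ELK3 was used.

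Of the 19 other human ETS genes, 17 were in the table and 9 passed the filter. None of the 9 passed the edgeR test with the plasmid, none had an unadjusted P below 0.05 there, against 14.5% of all genes, and none passed DESeq2 or the fit with the knockdown block. With the siRNA 1 passed, against 1.04% of all genes. By edgeR 4 of the 9 had an unadjusted P below 0.05 there, against 15.7% of all genes. These were ETV4, ETV5 and ETV1, which were higher, and ELF3, which was lower. The gene that passed was ETV4, a PEA3 group activator downstream of ERK, which rose from 10.8 ± 0.166 CPM in siNeg to 26.8 ± 4.93 in siCIN85 (log2FC 1.31, SE 0.251, edgeR adjusted P = 0.0251). The other PEA3 genes ETV5 (log2FC 0.57, adjusted P = 0.141) and ETV1 (0.62, adjusted P = 0.263) did not pass. ETV4 had a log2FC of -0.44 with the plasmid, and its difference between the responses was -1.75 (adjusted P = 0.0304). ERG, the nearest relative of FLI1, had 6 to 18 counts per library and a log2FC of -0.56 and 0.27, both with wide intervals (-1.46 to 0.35 and -0.58 to 1.13). ETV3 (log2FC -0.40 and 0.35), ERF (-0.17 and 0.11), both repressors, and ELF2 (0.095 and -0.044) and ELF4 (0.20 and -0.016) did not pass either test. ELF3, an epithelial member, had a log2FC of -1.05 and -1.42 at 0 to 82 counts and passed neither. The median log2FC of the 9 was -0.23 with the plasmid and 0.27 with the siRNA.

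**Figure D5:**
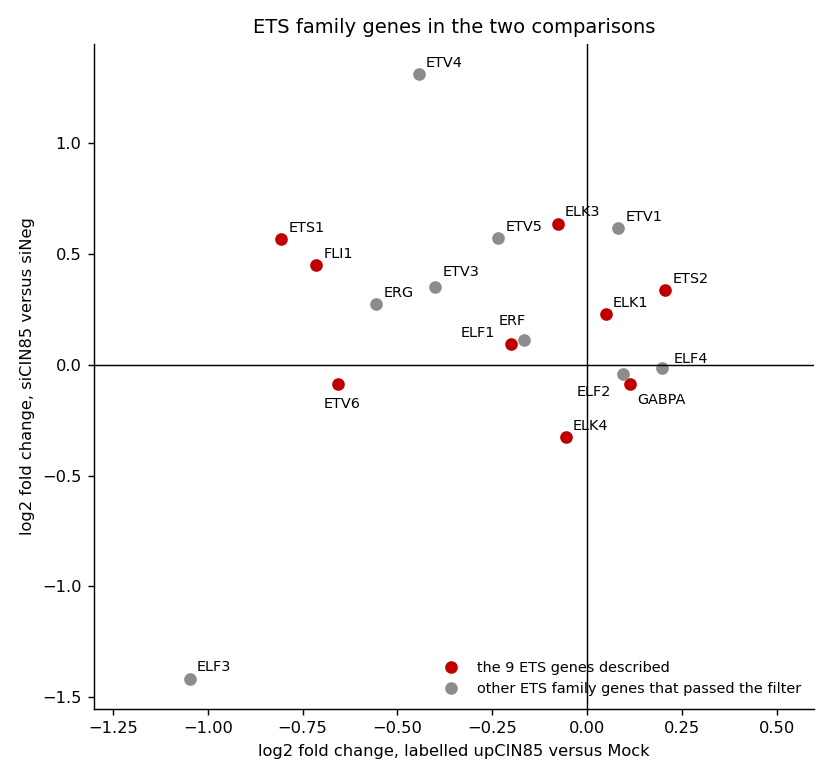
Log2FC in siCIN85 versus siNeg (vertical) against log2FC in upCIN85 versus Mock (horizontal) for the 18 ETS family genes that passed the filter, the 9 described in red and the others in grey. ETS1 and FLI1 lie furthest left among the 9, with positive values on the vertical axis, ETV4 is the highest point, and ETV6 lies left of 0 at the level of no change with the siRNA.

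Genes described as ETS1 targets were followed as a list. Of 18 listed, 14 were tested. The list was chosen with earlier results of these data known. With the plasmid 2 passed, both lower, against 1.23% of all tested genes. By edgeR 5 of the 14 had an unadjusted P below 0.05, against 14.5% of all genes. FLT1, a VEGF receptor, was at 55.4 to 84.5 CPM in Mock and 18.7 to 32.4 CPM in the libraries labelled upCIN85 (log2FC -1.44, SE 0.201, edgeR adjusted P = 0.00174). PLAU, the urokinase plasminogen activator, was at 31.7 to 39.1 CPM in Mock and 19.4 to 26.6 CPM in the libraries labelled upCIN85 (log2FC -0.70, SE 0.145, adjusted P = 0.0261). The FLT1 call held in all 19 alternatives, and the PLAU call was lost without Mock replicate 1, Mock replicate 2 or upCIN85 replicate 3, with an adjusted P of up to 0.157. With the knockdown block, SPP1, which encodes osteopontin, also passed with the plasmid, and its log2FC was positive (2.08, adjusted P = 0.0222). It passed by DESeq2 too (adjusted P = 0.0279). In siCIN85 versus siNeg neither FLT1 (log2FC 0.16, adjusted P = 0.743) nor PLAU (0.23, adjusted P = 0.463) passed.

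The targets that passed with the siRNA were 3 others of the 14, all higher, against 1.04% of all tested genes. By edgeR 6 of the 14 had an unadjusted P below 0.05, against 15.7% of all genes. Among these HPSE was lower (log2FC -0.92), and MMP9, which was higher, had 1 to 12 counts per library. MMP1, an interstitial collagenase, was at 4.15 to 10.5 CPM in siNeg and 19.7 to 33.7 CPM in siCIN85 (log2FC 2.10, SE 0.451, edgeR adjusted P = 0.0321). TIE1, an endothelial receptor kinase, was at 1.00 to 3.39 and 6.80 to 12.9 CPM (log2FC 2.31, SE 0.494, adjusted P = 0.0317), and CCND1, which encodes cyclin D1, at 185 to 210 and 301 to 352 CPM (log2FC 0.73, SE 0.157, adjusted P = 0.0324). No library of siCIN85 overlapped siNeg for MMP1, TIE1 or CCND1, which was so for 20.2% of all tested genes. Each call was lost without siNeg replicate 1, siNeg replicate 2, siCIN85 replicate 1 or siCIN85 replicate 3, as was that of ETV4, with adjusted P-values of up to 0.174. The median log2FC of the 14 targets was -0.11 with the plasmid and 0.29 with the siRNA.

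None of the 21 tested partners and regulators of ETS proteins, which include SRF, RUNX2, CREBBP and COP1, passed the edgeR test in either comparison. An unadjusted P below 0.05 was seen for 2 of them with the plasmid and 5 with the siRNA, against 14.5% and 15.7% of all genes. Their medians were 0.021 and 0.036. With the knockdown block, CBFB, the partner subunit of RUNX proteins, passed in siCIN85 versus siNeg (log2FC 0.35, adjusted P = 0.0449), and of these genes it alone passed by DESeq2 (adjusted P = 0.0432). Of 7 tested targets of SRF and the ELK proteins none passed by edgeR, 3 had an unadjusted P below 0.05 in each comparison against the same 14.5% and 15.7% of all genes, and the medians were -0.062 and 0.32. With the block JUNB, an AP-1 subunit, passed with the plasmid (log2FC -0.53, adjusted P = 0.0438), and none of the 7 passed by DESeq2. Of 8 tested targets of GABP, which include TFAM and COX4I1, none passed by edgeR or DESeq2, 0 and 2 had an unadjusted P below 0.05 against the same shares, and the medians were -0.072 and -0.0048.

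Genes outside the family whose pattern over the libraries was most like that of ETS1 were SPINDOC (r = 0.969), CBL (0.940), VPS11 (0.939), HCLS1 (0.937) and PHLDA2 (0.933), where r is taken over the 12 libraries after subtracting the mean of each experiment. CBL is a ubiquitin ligase known to bind CIN85, VPS11 acts in endosome fusion, and HCLS1 is an actin regulator of blood cells. SPINDOC, CBL, VPS11 and PHLDA2 are also on chromosome 11, as were 16 of the 100 genes most like ETS1, against 5.83% of the ranked genes. HCLS1, on chromosome 3, had a log2FC of -1.98 with the plasmid (edgeR adjusted P = 0.0098) and 1.26 with the siRNA (edgeR adjusted P = 0.0653). CBL had -0.53 (edgeR adjusted P = 0.0204) and 0.30 (edgeR adjusted P = 0.171). The most opposite patterns were those of SEPHS1 (r = -0.978), NISCH (-0.923) and FTH1 (-0.919), the ferritin heavy chain gene. FTH1 is on chromosome 11 too, and its log2FC was 0.87 with the plasmid (edgeR adjusted P = 0.00306) and -0.41 with the siRNA (edgeR adjusted P = 0.143). ETS1 was selected on its group differences, so genes ranked by likeness to it tend to share or reverse its opposite signs. The genes most like FLI1 were PHLDA2 (r = 0.985), PGM2 (0.954) and CBL (0.949). In the main edgeR fit no gene named here for its likeness passed with the siRNA, and VPS11, SEPHS1 and NISCH passed in neither comparison.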

How the data were processed

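Libraries of HOS cells were prepared with a 3′-end kit with a UMI module and sequenced as single-end reads. The authors deposited whole-number read counts per Ensembl gene, made with featureCounts and not normalised. The submitters' processing notes name FastQC, cutadapt 4.3, STAR 2.7.3a, Picard 2.25.6, MultiQC 1.10.1, Subread 2.0 and GRCh38. Collapsing of identifiers, counting strand and annotation release are not given in the sources used here. Counts of this kind record transcript ends and were not divided by length, so levels of different genes were not compared.

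Symbols and positions came from GENCODE release 29 on GRCh38, with 95 of 25141 identifiers unmatched. In R 4.3.3, edgeR 4.0.16 was used with filterByExpr (minimum count 10, minimum total 15), TMM and a quasi-likelihood fit of 4 group means over 12 libraries (8 residual degrees of freedom). P-values were two-sided and Benjamini-Hochberg adjusted over 12542 genes, with a threshold of 0.05. An exact permutation test of 3 against 3 libraries cannot give a P below 0.1. The script was tested on simulated data. Totals of 3540641 to 6049458 counts set the precision. Figures were drawn with matplotlib 3.10.9.

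Replicate numbers were checked by correlating deviations from group means. Same-numbered siNeg and siCIN85 libraries gave r of 0.353, 0.269 and 0.446, and the other pairs gave -0.287 to -0.059. The main fit does not use this pairing, and the block in the knockdown is given where it changes a call. For Mock and upCIN85 r was 0.326, 0.227 and 0.0989, and -0.298 to 0.030 for the other pairs. In both experiments every same-numbered pair was thus above every other pair. The values were lower for Mock and upCIN85, and a block there was run as an alternative only. No libraries were duplicates (chi-square per degree of freedom 4.56 to 9.28 within groups).

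Named genes were the 9 members, tested ETS family genes, genes of fixed lists past the threshold (at most 4 per list and comparison), and the genes with patterns most and least like ETS1 (5 and 3) and FLI1 (3), at a mean of at least 10 CPM. Likeness used log2 CPM with a prior count of 2. Genes named beyond this rule were chosen after their values were seen. The members and lists were chosen with earlier results of these data known. DESeq2 1.42.0, other normalisation and filters, replicate blocks and leaving out libraries were tried as alternatives.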

Additional observations from a re-analysis of the deposited data

Results flagged for a closer look

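The responses of ETS1 and FLI1 to the plasmid and to the siRNA differed. For ETS1 the log2FC in upCIN85 versus Mock minus that in siCIN85 versus siNeg was -1.37 (SE 0.170), every library labelled upCIN85 being below every Mock library and every siCIN85 library above every siNeg library, and this difference was not tested because ETS1 was selected on it. For FLI1 the same difference was -1.16 (SE 0.206, edgeR adjusted P = 0.0122). For ELK3 the difference was -0.71 (SE 0.181, edgeR adjusted P = 0.0704), and it passed with the block in the knockdown (adjusted P = 0.0178), with the block in both experiments (0.00479) and by DESeq2 (0.0235). The surroundings of both genes on chromosome 11 were lower in the libraries labelled upCIN85, and their part in these values was not tested.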

How the results depend on the processing

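Over 19 alternatives, 160 of 171 log2FC values of the 9 genes with the plasmid and 156 of 171 with the siRNA kept their direction and side of the threshold. These counts include ETS1, which was selected on its responses. They also include ELF1, ELK1, ELK4 and GABPA, which passed in no alternative in either comparison. The call of FLI1 with the plasmid held in 15 of the 19 and that of ELK3 with the siRNA in 14. The number of the 8 other genes passing the test (1, 1, 1 and 0 in upCIN85 versus Mock, siCIN85 versus siNeg, the difference of the responses and siNeg versus Mock) changed as follows. Without a filter on low counts it was 2 for the difference and 1 for siNeg versus Mock. A fit on the 6 libraries of siCIN85 versus siNeg gave 0. The replicate block in the knockdown gave 2 in upCIN85 versus Mock and 2 for the difference. The replicate block in both experiments gave 2, 3, 2 and 1, adding ETV6 with the plasmid and ETS2 and FLI1 (adjusted P = 0.035 and 0.0364) with the siRNA. DESeq2 gave 2 for the difference. Leaving out 1 library gave 0 to 2 in upCIN85 versus Mock, 0 to 1 in siCIN85 versus siNeg and 1 to 2 for the difference.

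Genes called in siCIN85 versus siNeg numbered 131, and 429 with the block in the knockdown or 968 with it in both experiments; in upCIN85 versus Mock they numbered 154, 545 and 1035, for the difference 122, 368 and 918, and for siNeg versus Mock 66, 362 and 655. DESeq2 called 321 in upCIN85 versus Mock, 291 in siCIN85 versus siNeg, 278 for the difference and 186 in siNeg versus Mock. The cause was not tested. In upCIN85 versus Mock and siCIN85 versus siNeg, the signs that changed did so when a library was left out, for ELF1 (-0.41 to 0.047), ELK1 (-0.059 to 0.12) and GABPA (-0.061 to 0.33) with the plasmid and for ELF1 (-0.15 to 0.24), ETV6 (-0.16 to 0.016) and GABPA (-0.22 to 0.040) with the siRNA. MMP1 was also lost with DESeq2, without siNeg replicate 3 and without Mock replicate 2, and TIE1 with 6 libraries and without Mock replicate 3. The likeness of FLI1 to ETS1 was 0.902 by Spearman's rank correlation and 0.919 with RLE normalisation. Relative to genes within 10 Mb, an alternative added after seeing the data, the log2FC of ETS1 with the plasmid was -0.56 and that of FLI1 was -0.48. ELF1, ETV6 and GABPA had at most 140 counts in a library, which limits what could be detected.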

Other observations

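The surroundings of the other ETS genes differed in upCIN85 versus Mock. Of the 49 other tested genes within 10 Mb of GABPA on chromosome 21, 8 had a negative log2FC, and the median was 0.19. Near ETS2 on the same chromosome 29 of 103 genes were negative, with a median of 0.099, and ETS2 itself was 0.11 above that median. Near ELK4 on chromosome 1 the median of 104 genes was 0.098. The medians around ELF1 (-0.0058), ELK3 (-0.011) and ELK1 (0.053) were closer to that of all genes. In siCIN85 versus siNeg the medians around the 9 genes were between -0.076 and 0.045. The log2FC of ELK3 with the siRNA was 0.69 above the median of its surroundings, where 6 of 71 genes were higher.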
